A study of Homo sapiens with 8 samples.

Results

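The miR-23/27/24 clusters are 2 groups of microRNA genes, one on chromosome 19 and one on chromosome 9, whose 6 precursors give closely related mature miRNAs. Their members here were 8 named mature strands (hsa-miR-23a-3p, hsa-miR-27a-3p, hsa-miR-24-3p, hsa-miR-27a-5p, hsa-miR-24-2-5p, hsa-miR-23b-3p, hsa-miR-27b-3p and hsa-miR-24-1-5p, written without hsa below), taken by name and not by their values. These were 8 of the 945 miRNA features listed across the deposited tables, which hold 1226 features with tRNA, rRNA and adapter features included. H1299, a p53-null line of non-small cell lung carcinoma taken from a lymph node, was sequenced for small RNA as H1299/EV (empty vector) and as H1299/mutant p53R273H (stably expressing p53 with the R273H missense change). Each line was left untreated or treated for 24 h with etoposide, which blocks topoisomerase II and so leaves breaks in DNA, and each of the 4 groups had 2 libraries. The labels give the dose as 10 µM in one protocol and 10 mM in another, so it is not certain. Colonies resistant to G418 after transfection with pCMV-Neo-Bam-p53 R273H gave the R273H line, while the EV line had been infected with its vector and came from another laboratory, so mutant p53, the way each line was made and its culture history cannot be told apart.

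A miRNA gene is transcribed as part of a longer RNA and cut to a hairpin, from which one strand, the guide, is usually kept in the Argonaute complex while the other arm of the hairpin, the passenger, is mostly degraded. The guide pairs with target messenger RNAs through its seed, the bases that follow its first base. Members of a cluster share a primary transcript, yet the mature strands can reach different levels. The miR-23/27/24 miRNAs are widely expressed and best known from endothelial cells, blood cell development and the cell cycle. Among the known targets are glutaminase for miR-23a, PPARG and ZBTB10 for miR-27a, and the histone H2AX, a mark of broken DNA when phosphorylated, for miR-24. The study's introduction names miR-27a, without an arm, among miRNAs implicated in what mutant p53 does in cancer cells, which is why the clusters bear on the comparison of these lines. A work cited there reports, in its title, that p53 R273H suppresses miR-27a.

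The mature sequences show which members read the same targets and which differ only near the 3′ end. They are the RefSeq records of the human genome table GRCh38.p14, written 5′ to 3′ with the seed (bases 2 to 8) in capitals.
miR-23a-3p: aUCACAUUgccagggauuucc
miR-23b-3p: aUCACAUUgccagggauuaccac
miR-27a-3p: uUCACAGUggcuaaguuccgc
miR-27b-3p: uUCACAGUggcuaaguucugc
miR-24-3p: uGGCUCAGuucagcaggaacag
miR-27a-5p: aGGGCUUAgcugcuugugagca
miR-24-2-5p: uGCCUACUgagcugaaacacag
miR-24-1-5p: uGCCUACUgagcugauaucagu

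Counted from 1 at the 5′ end, miR-23a-3p and miR-23b-3p differed by the substitution U19A and by length, 21 against 23 bases. For miR-27a-3p and miR-27b-3p the difference was C19U alone. The authors kept reads from 17 bases on, and the first 18 bases of each pair are the same, so a read that ended there could not be assigned to one of the 2 genes. miR-24-3p is the same molecule from 2 precursors, one in each cluster, and its reads cannot be divided between them. The 5′ arms of those 2 precursors can be told apart, since miR-24-2-5p and miR-24-1-5p share 15 bases at the start and then differ at 6 positions. By seed, miR-23a-3p and miR-23b-3p formed 1 set with miR-23c, miR-27a-3p and miR-27b-3p formed 1 set with miR-9985, and the 2 miR-24 5′ arms formed 1 set of their own among 2370 mature miRNAs. The seeds of miR-24-3p and miR-27a-5p were each found in 1 mature miRNA.

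On GRCh37, the build of the study, the chromosome 19 cluster lies on the minus strand at chr19:13947101-13947473, a stretch of 373 bases. In the order of transcription it holds MIR23A (chr19:13947401-13947473), MIR27A (chr19:13947254-13947331) and MIR24-2 (chr19:13947101-13947173), and each of the 3 precursors overlaps an exon of the long noncoding RNA gene MIR23AHG. The chromosome 9 cluster lies on the plus strand at chr9:97847490-97848370 and spans 881 bases inside AOPEP, which codes for an aminopeptidase. MIR23B (chr9:97847490-97847586) and MIR27B (chr9:97847727-97847823) are in an intron of AOPEP, and MIR24-1 (chr9:97848303-97848370) overlaps an exon of at least 1 of its transcripts.

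The libraries held from 213007 to 536991 miRNA reads. The deposited values are normalized counts, each library's reads divided by its own size factor, and each of the 3 deposited comparisons was normalized on its own. Every value was a whole number of reads once that factor was undone, which allowed all 8 libraries to be put on 1 scale. Replicates are called biological by the study, but no label says that they came from separate cultures, so the p-values measure only the spread between these libraries. miR-21-5p alone took 30.6% to 44.5% of the miRNA reads. Of 12 miRNAs that mark other cell types, 10 had a row. Together they took 0.123% to 0.427% of the miRNA reads, and nearly all of these were 449 to 1254 reads of miR-126-3p, an endothelial marker that is also made elsewhere. miR-144-3p of red cells and miR-142-5p of leukocytes were at 0 in each library. The 6 epithelial miRNAs of the miR-200 family and miR-205 had 2 to 18 reads in all per library, so these defining markers of an epithelial cell were close to absent.

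The clusters were among the most abundant sources of miRNA in these cells, and nearly all of it came from the chromosome 19 cluster and miR-24-3p. The 8 members together took 11.3% and 10.3% of the miRNA reads in the untreated EV libraries and 8.03% and 8.46% in the untreated R273H libraries. With etoposide the shares were 12.8% and 10.7% in EV and 9.54% and 11.0% in R273H. The untreated R273H libraries were the lowest of the 8. At these depths the 95% Wilson interval of a share was narrow, 12.6% to 12.9% in the shallowest library, and it covers counting error only. miR-23a-3p ranked between 3 and 5 among all miRNAs of a library, with 3.74% to 4.65% of the miRNA reads. miR-24-3p ranked between 5 and 10, with 1.93% to 3.74%. miR-27a-3p ranked between 4 and 11, with 1.88% to 4.49%. These are levels of mature strands of 21 to 23 bases, and whether the libraries captured each strand equally was not tested.

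The other members were far lower. miR-23b-3p had 266 to 941 reads in a library, miR-27b-3p had 52 to 360, miR-24-2-5p had 66 to 195 and miR-27a-5p had 51 to 205. miR-24-1-5p, the 5′ arm from chromosome 9, had 0 to 5 reads. Its reads were 1 and 0 in untreated EV, 1 and 0 in EV with etoposide, 1 and 1 in untreated R273H, and 5 and 2 in R273H with etoposide, and only the 5 exceed the 3 reads that a true level of 0 is taken to allow. No fold between groups is given for it. miR-27b-5p, the other arm of MIR27B, had 2 to 8 reads per library, while miR-23a-5p and miR-23b-5p had no row in the tables. Of the 5′ arms, as of the guides that can be told apart, most reads came from chromosome 19. A mean normalized count of at least 3 was required for testing, which 7 of the 8 members met in each comparison.

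**Figure D1:**
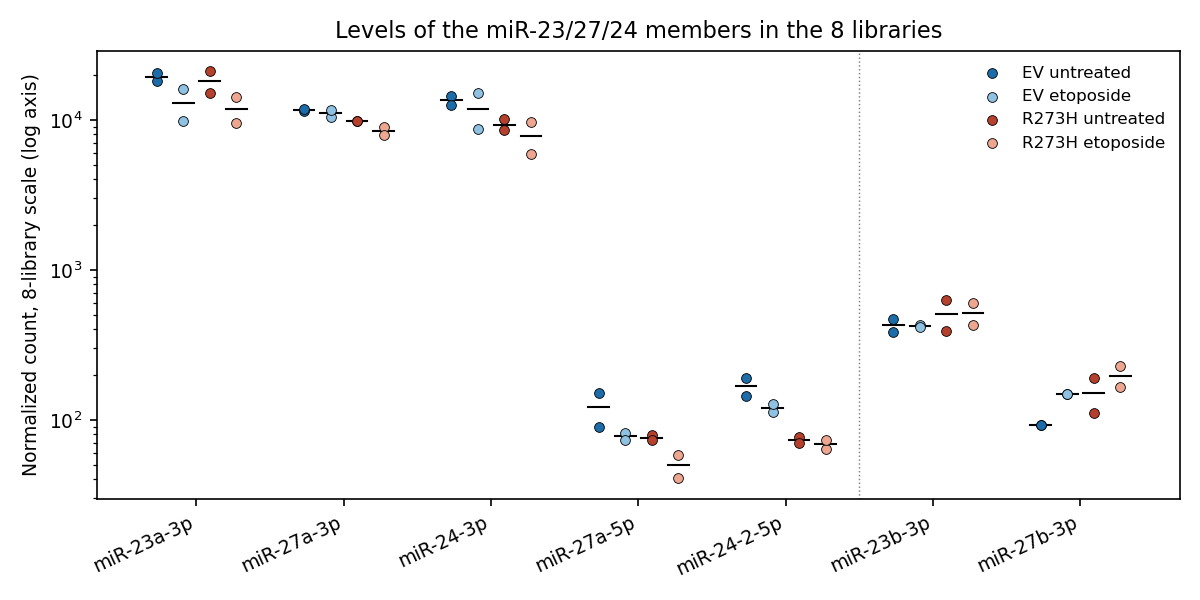
Normalized counts (log axis, all 8 libraries on 1 scale) of the 7 members above the filter; each point is a library, each bar the mean of the 2 libraries of a group, and the dotted line parts the chromosome 19 members and miR-24-3p from the chromosome 9 members. The 3 abundant guides lie between 5958 and 21113, the other members between 40.8 and 625, and both R273H groups of miR-24-2-5p lie below both EV groups.

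The first comparison was that of the lines without etoposide, the question of the study. The 5′ arm miR-24-2-5p was lower in H1299/mutant p53R273H than in H1299/EV, and it was the only member called. Of 304 miRNAs tested, 62 (20.4%) passed an adjusted p of 0.05 in limma, and 29 (9.54%) passed it as lower. With 1 of 7 members called, the clusters were close to that background. The median log2 fold change of the 7 members was −0.28, beside 0.10 for all miRNAs tested, with 5 members lower and 2 higher. By the study's own thresholds (unadjusted p under 0.05 and at least 2-fold), 83 miRNAs (27.3%) and 1 member passed in limma. That is not the study's count, which was smaller and came from DESeq with its own read filter. The study names miR-24, without an arm, among miRNAs lower in its R273H cells and in lung adenocarcinoma patients with mutant p53. At an unadjusted p under 0.05 alone there were 99 miRNAs (32.6%) and 2 members, miR-24-2-5p and miR-24-3p.

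miR-24-2-5p had normalized counts of 135.0 and 172 in the EV libraries and 67.7 and 62.2 in the R273H libraries. Both R273H libraries were below both EV libraries, and the means were 154 ± 26.3 and 65.0 ± 3.90 (SD, n = 2 each), a 2.36-fold difference. On the log2(normalized count + 1) scale it fell by 1.22 (SE 0.36, 95% interval −1.97 to −0.47, limma adjusted p = 0.0228). In bulk RNA, fewer cells that hold the miRNA and less of it per cell cannot be told apart. At the same fold, the call was lost with limma without the trend (adjusted p = 0.0686) and with a block for the replicate number (limma adjusted p = 0.0785). No label says that the numbers pair the samples. Without the second EV library, the first R273H library or the second R273H library, the log2 fold change was −1.05, −1.28 or −1.16. The call was lost in each of these fits, which leave a single library in a group. Each library held 66 to 195 reads of it, so the counts themselves were not near the floor. miR-126-3p, the marker that made up most of the other-cell-type reads, also fell in R273H, by 0.90 on the log2 scale (limma adjusted p = 0.0366). The whole list, set by that marker, took 0.240% and 0.234% of the miRNA reads in EV and 0.128% and 0.123% in R273H. miR-144-3p and miR-142-5p were at 0. The other markers tested had at most 18 reads in an untreated library and none was called. Of these, miR-486-5p was lower in R273H (log2 fold change −0.41), and miR-1-3p (1.67), miR-451a (0.56) and miR-122-5p (0.34) were higher. The part of the fall of miR-126-3p in the result was not tested.

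The 3 abundant guides had no called difference. miR-24-3p, which comes from both clusters, had 13430.2 and 11325 in EV and 8962 and 7584 in R273H. Both R273H libraries were lower, with a log2 fold change of −0.58 (SE 0.25, 95% interval −1.11 to −0.05), an unadjusted p of 0.033 and a limma adjusted p of 0.111. miR-27a-3p, the guide of the miRNA that the introduction names, had 10697 and 10634 in EV and 8723 and 8825 in R273H. These groups did not overlap and their replicates were close, at 10665 ± 44.8 and 8774 ± 72.3 (SD, n = 2 each), and the log2 fold change was −0.28 (SE 0.25, 95% interval −0.80 to 0.24, limma adjusted p = 0.446). miR-23a-3p had 16996 and 18497 in EV and 18727 and 13510.4 in R273H. Its groups overlapped, with the R273H libraries the highest and the lowest of the 4, and the log2 fold change was −0.16 (SE 0.26, 95% interval −0.69 to 0.38, adjusted p = 0.737).

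miR-27a-5p, the passenger of MIR27A, had 142 and 81.3 in EV and 69.8 and 65.8 in R273H. The first EV library stood above the other 3 libraries, which lay close together, and the log2 fold change was −0.66 (SE 0.38, 95% interval −1.46 to 0.14, limma adjusted p = 0.233). From chromosome 9, miR-27b-3p had 86.5 and 82.9 in EV and 98.5 and 169.8 in R273H. Here both R273H libraries were the higher ones, but they differed widely, and the log2 fold change was 0.61 (SE 0.37, 95% interval −0.17 to 1.38, limma adjusted p = 0.254). miR-23b-3p had 363 and 424 in EV and 554 and 350.2 in R273H, groups that overlapped, with a log2 fold change of 0.17 (SE 0.32, 95% interval −0.50 to 0.83, limma adjusted p = 0.751). The libraries of the groups did not overlap for 4 members that were lower in R273H and for 1 that was higher, beside 26.6% and 34.9% of all miRNAs tested. For each member that was not called, the 95% interval reached −0.69 or lower, or 0.83 or higher.

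With etoposide, the lines were compared on the scale shared by the 8 libraries, in a model of the 4 groups. No member was called, while 58 of 321 miRNAs (18.1%) were called in limma. At an unadjusted p under 0.05 there was 1 member, miR-24-2-5p, beside 105 miRNAs (32.7%). edgeR called the same member and DESeq2 called none. The median log2 fold change of the members was −0.39, beside 0.25 for all miRNAs tested.

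For miR-24-2-5p the normalized counts with etoposide were 113 and 127 in EV and 64.3 and 73.0 in R273H. The R273H libraries were again both the lower ones, with a log2 fold change of −0.79 (SE 0.34, 95% interval −1.49 to −0.10, limma adjusted p = 0.104). In edgeR, where the median of all miRNAs also moved by −0.25, the log2 fold change was −0.98 with an adjusted p of 0.0294, and in DESeq2 it was −0.94 with an adjusted p of 0.0533. On the same scale the untreated counts were 144 and 191 in EV and 76.4 and 69.6 in R273H. All 4 R273H libraries thus had less normalized miR-24-2-5p than any of the 4 EV libraries, the highest R273H value being 76.4 and the lowest EV value 113. As a share of the miRNA reads the order was less clean, since the second R273H library with etoposide, at 0.0330%, was above the second EV library with etoposide, at 0.0312%.

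The guide miR-27a-3p had 10463 and 11569 in EV with etoposide and 8902 and 7902 in R273H with etoposide. The groups did not overlap, and the log2 fold change was −0.39 (SE 0.42, 95% interval −1.25 to 0.46, limma adjusted p = 0.545). miR-24-3p had 8702 and 14986 in EV and 9679.6 and 5958 in R273H, which overlapped, with a log2 fold change of −0.59 (SE 0.44, limma adjusted p = 0.371). miR-23a-3p had 9795 and 15986 in EV and 14147 and 9538 in R273H. Its log2 fold change, −0.11 (SE 0.47, limma adjusted p = 0.914), turned to 0.04 when the libraries were scaled to equal miRNA totals. For both of these guides the EV replicates with etoposide were farther apart than the group means of the lines.

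miR-27a-5p had 82.0 and 72.9 in EV with etoposide and 40.8 and 58.4 in R273H, with both R273H libraries the lower ones and a log2 fold change of −0.65 (SE 0.36, 95% interval −1.40 to 0.10, limma adjusted p = 0.215). The chromosome 9 guide miR-27b-3p had 148 and 148 in EV and 166 and 229 in R273H, with both R273H libraries the higher ones and a log2 fold change of 0.39 (SE 0.34, 95% interval −0.31 to 1.10, limma adjusted p = 0.442). miR-23b-3p had 428 and 418 in EV and 427 and 597 in R273H, which overlapped, with a log2 fold change of 0.26 (SE 0.33, limma adjusted p = 0.618).

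**Figure D2:**
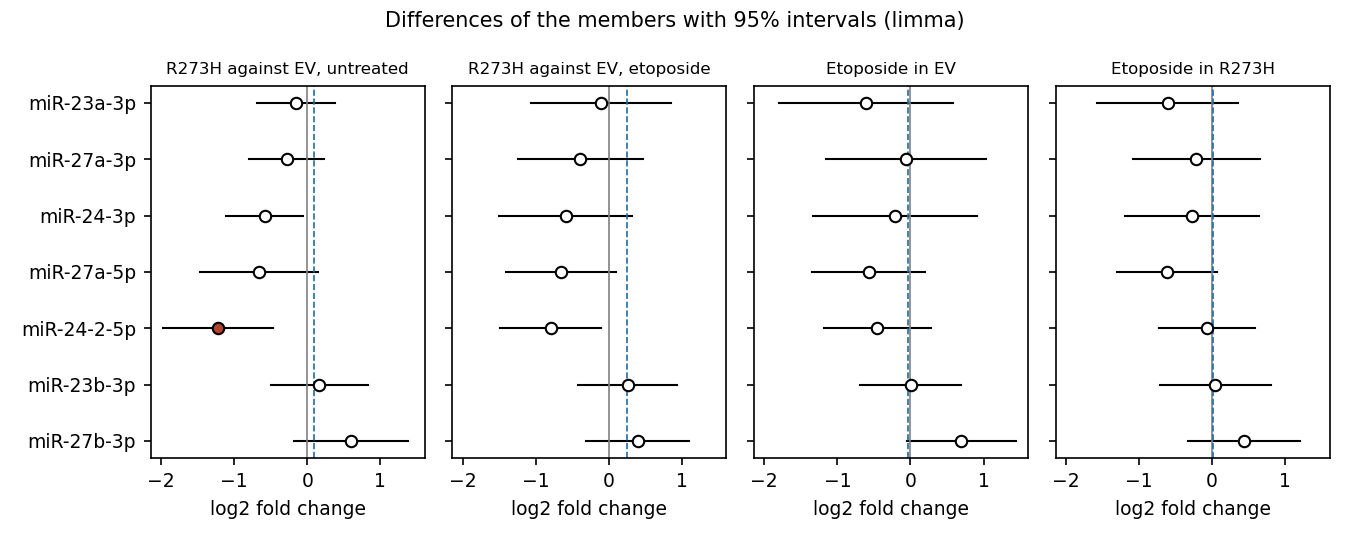
Log2 fold change (x axis) of the 7 members above the filter in 4 comparisons, each with its 95% interval from limma; the filled point is the member with an adjusted p under 0.05, and the dashed line is the median of all miRNAs tested. Only miR-24-2-5p in untreated cells is filled, at −1.22, and the intervals with etoposide are wide.

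The response to etoposide within each line was the other comparison of the design. No member was called in either line. In EV, 2 of 296 miRNAs (0.676%) were called by limma, and at an unadjusted p under 0.05 there were 24 (8.11%), with 0 members among them. edgeR and DESeq2 called 0 members as well. In R273H, 0 of 341 miRNAs were called by limma, edgeR called 0 and DESeq2 called 1, with 0 members. At an unadjusted p under 0.05 there were 31 (9.09%), again with 0 members. The medians of the members were −0.22 in both lines, beside −0.03 and 0.02 for all miRNAs tested. The untreated libraries of each line were the controls here and also the groups of the first comparison, so these results share libraries.

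miR-27b-3p was the member with the smallest p in EV. Its normalized counts were 80.6 and 78.7 without and 129 and 129.9 with etoposide. The replicates of each group nearly coincided and the groups did not overlap, 79.7 ± 1.35 and 129 ± 0.820 (SD, n = 2 each), a 1.62-fold difference. The log2 fold change was 0.69 (SE 0.38, 95% interval −0.05 to 1.44) with an unadjusted p of 0.0687 and a limma adjusted p of 0.635. In R273H the counts of miR-27b-3p were 128 and 226 without and 198 and 267 with etoposide. These groups overlapped, with a log2 fold change of 0.44 (SE 0.35, 95% interval −0.33 to 1.20, limma adjusted p = 0.709). Its share of the miRNA reads was 0.0233% and 0.0208% in untreated EV and 0.0634% and 0.0364% in EV with etoposide, so the treated libraries were higher on that scale too. In R273H the shares were 0.0213% and 0.0470% without and 0.0474% and 0.103% with etoposide.

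miR-23a-3p had 15833 and 17568 in untreated EV and 8539 and 14022 in EV with etoposide. In R273H it had 24266 and 17950.3 without and 16868 and 11158 with etoposide. In both lines the treated libraries were the lower ones on this scale, with log2 fold changes of −0.61 in EV (SE 0.60, limma adjusted p = 0.932) and −0.61 in R273H (SE 0.44, limma adjusted p = 0.658). Without the first R273H library with etoposide, the log2 fold change in R273H was −0.90 with a limma adjusted p of 0.0173. The direction in R273H depended on the scale. As a share of the miRNA reads miR-23a-3p was at 4.57% and 4.65% in untreated EV, 4.20% and 3.93% in EV with etoposide, 4.04% and 3.74% in untreated R273H and 4.04% and 4.31% in R273H with etoposide. The total of normalized miRNA counts was not even across libraries, from 221392 in the second R273H library with etoposide and 232983 in the first EV library with etoposide to 522669 in the first untreated R273H library. Scaling to equal miRNA totals, a setting chosen after the data were seen, moved the median of all miRNAs by 0.41 in EV and 0.69 in R273H on the log2 scale, and gave miR-23a-3p a log2 fold change of 0.10 in R273H.

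**Figure D3:**
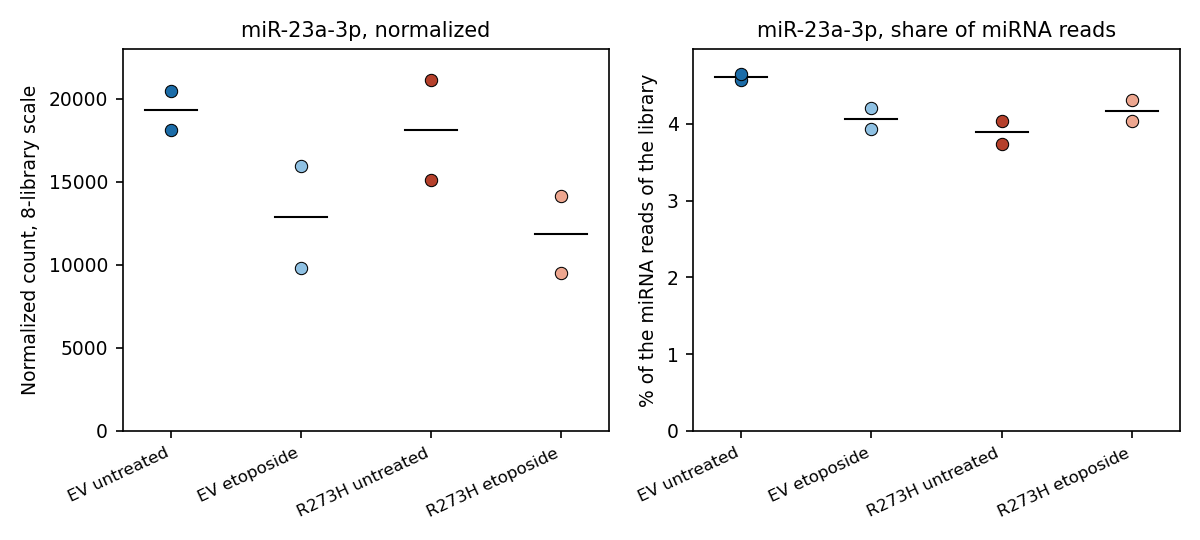
miR-23a-3p in the 8 libraries as normalized counts on the shared scale (left) and as a percent of the miRNA reads (right); each point is a library and each bar the mean of the 2 libraries of a group. Within each line the treated libraries are lower on the left, while on the right R273H with and without etoposide lie between 3.74% and 4.31%.

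The other 2 abundant guides had no called response, and the sign of each fold change depended on the scale. miR-27a-3p had 9965 and 10099 in untreated EV and 9122 and 10148 with etoposide, with a log2 fold change of −0.06 (SE 0.56, 95% interval −1.15 to 1.03, limma adjusted p = 0.993) that turned to 0.37 under equal miRNA totals. In R273H it had 11303 and 11725 without and 10615 and 9244 with etoposide, and its log2 fold change of −0.22 (SE 0.40, limma adjusted p = 0.931) turned to 0.49. miR-24-3p had 12511 and 10756 in untreated EV and 7587 and 13145 with etoposide, groups that overlapped, with a log2 fold change of −0.22 (SE 0.57), or 0.21 under equal miRNA totals. In R273H it had 11613 and 10076 without and 11541 and 6969.9 with etoposide, with a log2 fold change of −0.27 (SE 0.42), or 0.44 under equal miRNA totals.

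The lower members are given in the same way. miR-27a-5p had 132 and 77.2 in untreated EV and 71.5 and 64.0 with etoposide, with a log2 fold change of −0.57 (SE 0.39, 95% interval −1.34 to 0.19, limma adjusted p = 0.856). In R273H miR-27a-5p had 90.4 and 87.4 without and 48.6 and 68.3 with etoposide, with a log2 fold change of −0.62 (SE 0.32, 95% interval −1.30 to 0.07, unadjusted p = 0.0748, limma adjusted p = 0.51). The treated libraries of this passenger strand were the lower ones in both lines, but under equal miRNA totals its log2 fold change in R273H was 0.08. miR-24-2-5p had 126 and 163 in untreated EV and 98.2 and 111 with etoposide, which did not overlap, with a log2 fold change of −0.45 (SE 0.37, limma adjusted p = 0.932). In R273H it had 87.8 and 82.7 without and 76.7 and 85.4 with etoposide, which overlapped, with a log2 fold change of −0.07 (SE 0.30), or 0.63 under equal miRNA totals. miR-23b-3p had 338 and 403 in untreated EV and 373 and 367 with etoposide, and 718 and 465 in untreated R273H and 509.5 and 699 with etoposide, with log2 fold changes of 0.00 and 0.05. The libraries of the groups did not overlap for 3 members that were lower and 1 that was higher with etoposide in EV, beside 15.5% and 18.6% of all miRNAs tested, and for 3 that were lower and 0 that were higher in R273H, beside 18.8% and 20.5%.

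The difference between the etoposide responses of the lines was tested itself, as the interaction of line and treatment over the 8 libraries. No member and none of the 321 miRNAs passed an adjusted p of 0.05 in limma, and edgeR and DESeq2 called 0 as well. At an unadjusted p under 0.05 there were 11 miRNAs (3.43%) and 0 members. For miR-24-2-5p the difference was 0.38 (SE 0.48, 95% interval −0.60 to 1.36, limma adjusted p = 0.993), for miR-27b-3p −0.26 (SE 0.48) and for miR-27a-3p −0.16 (SE 0.59) on the log2 scale. Such intervals also allow more than a 2-fold difference between the responses.

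Ratios between members within a library do not depend on the scaling, and these were compared over 4 libraries against 4 with an exact two-sided permutation test. That test has 70 splits and a smallest p of 0.0286, and 10 such tests were run (5 ratios, each between lines and between treatments). No ratio passed Benjamini-Hochberg adjustment, the smallest adjusted p being 0.204. With that smallest p and 10 tests, a single ratio could not have passed, however far its groups lay apart. Nothing is concluded from the lack of a pass. The ratio was the mean of log2 of reads, with 0.5 added to each count. Each side of a comparison of lines held treated and untreated libraries, and each side of a comparison of treatments held both lines. The SD and the exact p therefore include the spread due to the other factor, which the test did not hold fixed.

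For the miR-27 pair, which has 1 seed, 0.803% and 0.773% of the reads in untreated EV were assigned to the chromosome 9 strand miR-27b-3p. The 95% Wilson intervals were 0.674% to 0.955% and 0.590% to 1.01%. They cover counting error only, and not reads assigned to the wrong strand of a pair that differs at 1 base. With etoposide the share in EV was 1.39% and 1.26%. In R273H it was 1.12% and 1.89% without and 1.83% and 2.81% with etoposide. The untreated EV libraries were the lowest of the 8 and the second R273H library with etoposide the highest. The ratio of miR-27a-3p to miR-27b-3p differed by −0.84 on the log2 scale (R273H minus EV, 5.75 ± 0.55 against 6.59 ± 0.44, SD, n = 4 each, exact p = 0.0857, adjusted p = 0.204), and by −0.89 within untreated and −0.79 within treated libraries. Between treated and untreated libraries it differed by −0.70 (exact p = 0.143, adjusted p = 0.204, n = 4 each), by −0.76 within EV and −0.65 within R273H.

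For the miR-23 pair the share of miR-23b-3p was 2.09% and 2.24% in untreated EV, 4.18% and 2.55% in EV with etoposide, 2.87% and 2.53% in untreated R273H and 2.93% and 5.89% in R273H with etoposide. The 2 libraries at the top, the first of EV and the second of R273H with etoposide, were also the 2 with the lowest totals of normalized miRNA counts and the 2 with the least miR-21-5p, 33.5% and 30.6%, and the part of this in the result was not tested. The ratio of miR-23a-3p to miR-23b-3p differed by −0.63 on the log2 scale between treated and untreated libraries (exact p = 0.0571, adjusted p = 0.204, n = 4 each) and by −0.34 between R273H and EV (exact p = 0.457, adjusted p = 0.508). Taken as sums, miR-23a-3p and miR-27a-3p against miR-23b-3p and miR-27b-3p differed by −0.51 between lines (exact p = 0.143, adjusted p = 0.204) and by −0.55 between treatments (exact p = 0.114, adjusted p = 0.204), again with n = 4 each.

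**Figure D4:**
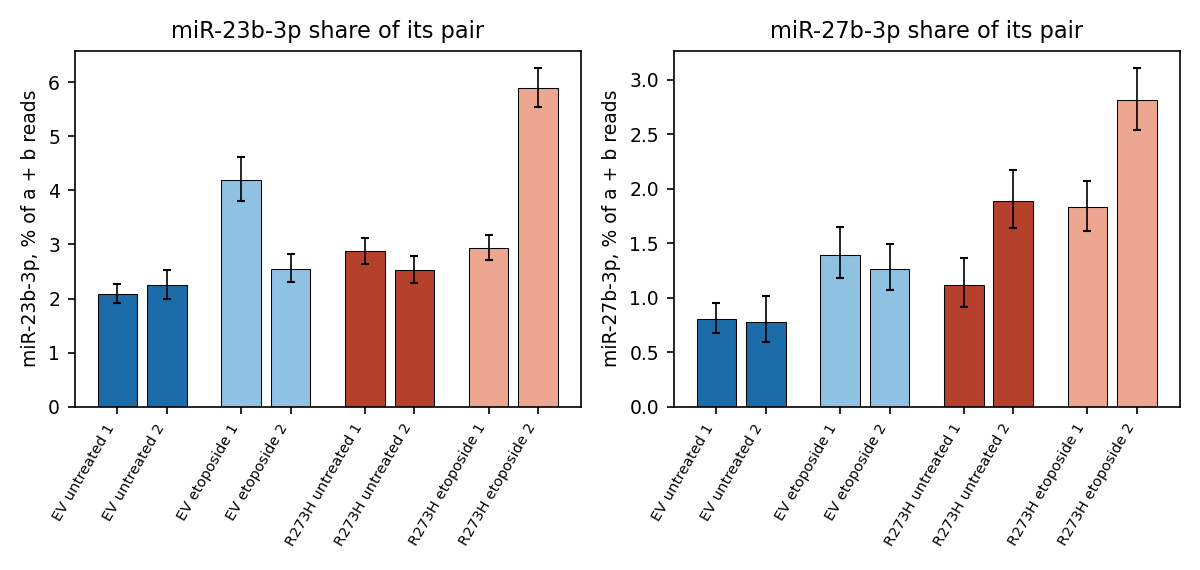
Percent of the reads of each same-seed pair (a strand plus b strand, chromosome 19 plus chromosome 9) that were assigned to the b strand of chromosome 9, per library. The error bars are 95% Wilson intervals and cover counting error only. The untreated EV libraries have the lowest share in both panels (2.09% and 2.24% on the left, 0.803% and 0.773% on the right), and the second R273H library with etoposide the highest.

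Within the MIR27A hairpin, the passenger to guide ratio (miR-27a-5p to miR-27a-3p) differed by −0.33 on the log2 scale between R273H and EV (exact p = 0.371, adjusted p = 0.464, n = 4 each). Between treated and untreated libraries it differed by −0.46 (exact p = 0.114, adjusted p = 0.204). The ratio of the 2 miR-24 5′ arms, miR-24-2-5p to miR-24-1-5p, came to −2.02 between R273H and EV (exact p = 0.0286, the smallest this test can give, adjusted p = 0.204). Since miR-24-1-5p had at most 1 read in each EV library, that value is set largely by the 0.5 added to the counts and by the reads of miR-24-2-5p, and nothing is read from it. The ratio of miR-24-2-5p to miR-27a-3p, its neighbour in the same transcript, was added after the data were seen and was not tested. It differed by −0.68 on the log2 scale between R273H and EV (−7.00 ± 0.18 against −6.32 ± 0.27, SD, n = 4 each) and the lines did not overlap. To miR-24-3p, the guide of its hairpin but also made from MIR24-1, the difference was −0.43 and the lines overlapped.

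The levels over the 8 libraries were set beside those of other miRNAs with a mean of at least 50 reads, by the root mean square difference of centred log2 levels. Among 131 such miRNAs, the nearest to miR-23a-3p were miR-29a-3p (0.203), miR-191-5p (0.208) and miR-21-5p (0.211). For miR-27a-3p they were miR-182-5p (0.161), miR-425-5p (0.205) and miR-361-5p (0.207). Its own root mean square spread was 0.188, so miR-425-5p and miR-361-5p lay farther from it than an unchanging level would. For miR-24-3p they were miR-222-3p (0.209), let-7a-5p (0.236) and miR-21-3p (0.249), with miR-27a-3p the fourth at 0.263. The nearest to miR-24-2-5p were let-7d-5p (0.233), miR-126-3p (0.238) and miR-342-3p (0.262). For miR-27a-5p they were miR-140-3p (0.238), miR-31-3p (0.370) and miR-574-3p (0.373), with miR-27a-3p the fourth at 0.391. The nearest to miR-23b-3p were miR-186-5p (0.191), miR-340-3p (0.200) and miR-455-3p (0.215), and to miR-27b-3p miR-1180-3p (0.202), miR-32-5p (0.287) and miR-26b-5p (0.327). No member was among the 3 nearest of another, although 5 of them share a primary transcript on chromosome 19 at least in part. These are descriptions over 8 libraries that share their depth and scaling.

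The introduction of the study also names miR-128b, miR-223, let-7i, miR-130b and miR-155 beside mutant p53, without arms. The strands looked up for them here, miR-128-3p, miR-223-3p, let-7i-5p, miR-130b-3p and miR-155-5p, were a choice of this work, and miR-128-3p is the product of 2 precursors. Of the 4 that met the filter, 0 were called between untreated lines by limma, and 1 was called, as higher in R273H, under etoposide, beside 20.4% and 18.1% of all miRNAs tested. That was miR-128-3p, best known from neurons, with a log2 fold change of 1.09 under etoposide (SE 0.35, limma adjusted p = 0.0289) and 0.71 in untreated cells (SE 0.30, unadjusted p = 0.026, limma adjusted p = 0.092). In untreated cells the log2 fold changes were −0.72 for let-7i-5p, 0.67 for miR-130b-3p and 0.88 for miR-155-5p, with limma adjusted p-values of 0.254, 0.214 and 0.194. miR-223-3p, a myeloid miRNA, had 0 to 3 reads. The sequence of miR-128-3p is shown because it overlaps the seed region of miR-27a-3p, with the 8 shared bases in capitals in both.
miR-128-3p: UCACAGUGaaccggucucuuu
miR-27a-3p: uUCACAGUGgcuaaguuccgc

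The shared run starts at base 1 of miR-128-3p and at base 2 of miR-27a-3p, so the strands are offset by 1 base and their seeds differ. miR-27a-3p had log2 fold changes of −0.28 and −0.39 in the same pair of comparisons, neither of them called.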

How the data were processed

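Small RNA of H1299/EV and H1299/mutant p53R273H cells, untreated or treated with etoposide, was sequenced on an Ion PGM instrument. The authors trimmed reads and kept those of 17 to 35 bases, aligned them to miRBase 20 with SHRiMP and the rest to GRCh37 with Novoalign, and counted them per feature. The deposited signal is a normalized count, the reads divided by a size factor per library from the R package DESeq. The deposited tables of fold changes and p-values hold the authors' own comparisons and were not used.

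Reads were recovered as whole multiples of the value of 1 read (tolerance 0.1 read). Each deposited comparison was tested within its own table in R 4.3.3 by limma 3.58.1, with eBayes allowing for a trend of the variance with the level, on log2(normalized count + 1), which understates the changes of low miRNAs, for miRNAs with a mean of at least 3, with Benjamini-Hochberg adjustment. No table pairs the treated lines, so that comparison and the interaction used all 8 libraries, the recovered reads divided by median-of-ratios size factors, and 1 model of 4 groups. edgeR 4.0.16 (quasi-likelihood) and DESeq2 1.42.0 on recovered reads, other pseudocounts, filters and scalings, limma without the trend, a replicate block and leaving out each library were alternatives. Ratios, exact tests and intervals used Python 3.11.15, scipy 1.17.1, numpy 2.4.6 and pandas 2.3.3. Depth was 234545 to 579367 reads on all features, and 3 reads were taken as the floor of a library. Between replicates the chi-square of the reads, per degree of freedom, was 32.3 to 70.4, so each was a separate library. Named miRNAs were the 8 members, the other arms of their precursors, 5 further miRNAs named with mutant p53 in the study's introduction, miR-21-5p as a scale and the 3 nearest miRNAs of each member. Lists of 12 miRNAs of other cell types and of 6 epithelial miRNAs served as markers, and miR-23c and miR-9985 are named only for their seeds. The members and lists were chosen with earlier results of these data known. Sequences were matched by name to RefSeq, and precursors were placed on GRCh37 with GENCODE 44 lifted to that build. The scripts were tested on simulated data.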

Additional observations from a re-analysis of the deposited data

How the results depend on the processing

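In untreated cells the count of called members was 1 (miR-24-2-5p). It was 0 with limma without the trend and 0 with a replicate block, and it ranged from 0 to 1 when a library was left out, with the call lost in 3 of those 4 fits. The members at p under 0.05 and at least 2-fold ranged from 1 to 2 there. No label says that the replicate numbers pair the samples. The deviations of same-numbered libraries correlated at −0.40 to 0.26 between groups, which cannot settle it with 2 libraries per group. The block took all calls in untreated cells from 62 to 0. In R273H with etoposide the called members ranged from 0 to 1 with a library left out, and between the lines under etoposide edgeR called 1. In EV with etoposide, 1 member (miR-27b-3p, log2 fold change 1.12) met p under 0.05 and 2-fold under equal miRNA totals. Over all miRNAs at p under 0.05 and at least 2-fold, the higher and lower ones in untreated cells numbered 50 and 33 in limma, 34 and 43 in edgeR and 26 and 33 in DESeq2, with the median moved by −0.19 and −0.11. Both tools change the model as well as the scaling, and these were not separated. With etoposide in R273H they numbered 10 and 11, and 35 and 0 under equal miRNA totals. In EV they numbered 7 and 13, and 10 and 2.

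Some log2 fold changes changed sign, and the cause was not tested. Equal upper quartiles gave −0.015 for miR-23b-3p with etoposide in EV (edgeR −0.015) and −0.071 in R273H, and 0.012 for miR-23a-3p between the lines under etoposide. Equal miRNA totals gave 0.037 for the latter, 0.21 for miR-24-3p and 0.37 for miR-27a-3p with etoposide in EV, and in R273H 0.10 for miR-23a-3p (from −0.61), 0.44 for miR-24-3p, 0.63 for miR-24-2-5p, 0.49 for miR-27a-3p and 0.083 for miR-27a-5p (from −0.62). They gave 0.12 and 0.022 for the interactions of miR-27a-3p and miR-27b-3p.

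Leaving out a library gave these ranges for values that changed sign or side. Between untreated lines miR-23b-3p ranged from −0.16 to 0.50 and miR-23a-3p from −0.39 to 0.079. With etoposide in EV, miR-23b-3p ranged from −0.12 to 0.13, miR-24-3p from −0.61 to 0.18 and miR-27a-3p from −0.14 to 0.017. In R273H, miR-23b-3p ranged from −0.27 to 0.36, miR-24-2-5p from −0.15 to 0.0036 and miR-24-3p from −0.63 to 0.094. miR-23a-3p between the lines under etoposide ranged from −0.46 to 0.25 and the interaction of miR-27b-3p from −0.64 to 0.13. The log2 ratio of miR-24-2-5p to miR-24-1-5p ranged from −2.38 to −1.66 between lines and from −1.21 to 0.035 between treatments. Between lines each had an exact p of 0.0571, the smallest that test can give with a library left out. A single library left in a group was assumed to vary like the other groups.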
